A study of Mus musculus with 6 samples.

Results

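The genes described here encode the integrin chains and the proteins that link integrins to actin at focal adhesions. They were chosen by symbol from the protein-coding genes of the GENCODE M21 annotation, which gave 18 integrin alpha chains, 8 beta chains and 18 linker proteins (talins, kindlins, tensins, vinculin, paxillin, zyxin and the complex of ILK, PINCH and parvin). These 44 members were taken from 54356 genes in all, of which 21815 are protein-coding, and all 44 passed the filter on low counts. The RNA is the polyadenylated fraction from eWAT, the epididymal fat pad (a visceral white adipose tissue of the male mouse), of wild type C57BL/6N males aged 20 weeks. The cold group is mice 7, 12 and 16, and the ctrl group is mice 5, 6 and 10, each a separate animal with 1 library. The filter asks for enough counts in as many libraries as a group holds. Itgb6, Itgb8 and Fermt1 met it only through their cold libraries. The protocol text describes 24 h of single housing at 4 °C before dissection and is the same for all 6 mice, and the rooms were otherwise kept at 22 to 24 °C. It does not say at what temperature or in what company the ctrl mice spent those 24 h, so cold and any difference in housing cannot be told apart.

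Integrins are cell surface receptors made of 1 alpha and 1 beta chain, and the pairing sets whether they bind laminin, collagen, fibronectin and other matrix proteins or receptors on other cells. Talins and kindlins bind the tail of the beta chain and switch the receptor to its active form, and tensins, vinculin, paxillin, zyxin and the ILK complex tie the cluster to actin filaments and signalling kinases. In fat, adipocytes sit in a basement membrane rich in laminin and collagen, and the same tissue holds vessels, nerves and leukocytes that use integrins of their own.

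The libraries held 19735167 to 28608052 estimated counts each. Adipocyte marker genes were detected in every library. Their summed level was 42645, 40215 and 39575 CPM (counts scaled for library size) in cold 7, cold 12 and cold 16. In ctrl 5, ctrl 6 and ctrl 10 it was 40508, 45419 and 43854 CPM. Of the 12 adipocyte markers, 5 (41.7%) were lower in every cold library and 2 (16.7%) higher, beside 11% and 12.7% of all genes. Their median log2 fold change was -0.148. Lep rose by 0.61 and Cfd fell by 0.59 on the log2 scale (edgeR adjusted p = 0.0439 and 0.0438). Markers of epithelial cells summed to 111, 221 and 201 CPM in the cold libraries and 26.9, 7.24 and 6.01 CPM in the ctrl libraries. Their lowest cold library was cold 7 and their highest ctrl library was ctrl 5, and the same order held for the motile cilium markers at 63.2, 200 and 162 CPM in the cold against 28.4, 6.84 and 3.80 CPM in ctrl. Of these 11 motile cilium markers all were higher in every cold library, and among the epithelial markers all 10 that could be tested were; the cilium genes Dnah5 and Spag17 were at 0 in some libraries. Macrophage markers were highest in cold 7, at 1299 CPM, with 956 and 767 CPM in the other cold libraries and 1172, 1056 and 1033 CPM in ctrl. In whole tissue, fewer cells of a type and less RNA per cell cannot be told apart.

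In the cold libraries 2 beta chain genes of very low level rose, and a tensin and a talin fell. Of the 44 members, 4 passed an adjusted p of 0.05 by edgeR's quasi-likelihood test, which is 9.09%, against 2.89% of the 17852 genes tested. Itgb6 and Itgb8 rose, where 2.32% of all genes rose, and Tns2 and Tln2 fell, where 0.566% of all genes fell. Itgb6 and Itgb8 passed the filter only through their cold libraries. At their ctrl levels, these genes could be tested only if they were high in the cold. At an unadjusted p under 0.05 there were 4 members higher and 8 lower in the cold, beside 10.6% higher and 6.99% lower among all genes. The cold and ctrl libraries did not overlap for 14 members. Of these, 4 were higher in the cold (9.09% of members, against 12.7% of all genes) and 10 were lower (22.7%, against 11% of all genes). The 4 higher members include Itgb6, Itgb8 and Fermt1, which passed the filter only through their cold libraries.

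**Figure D1:**
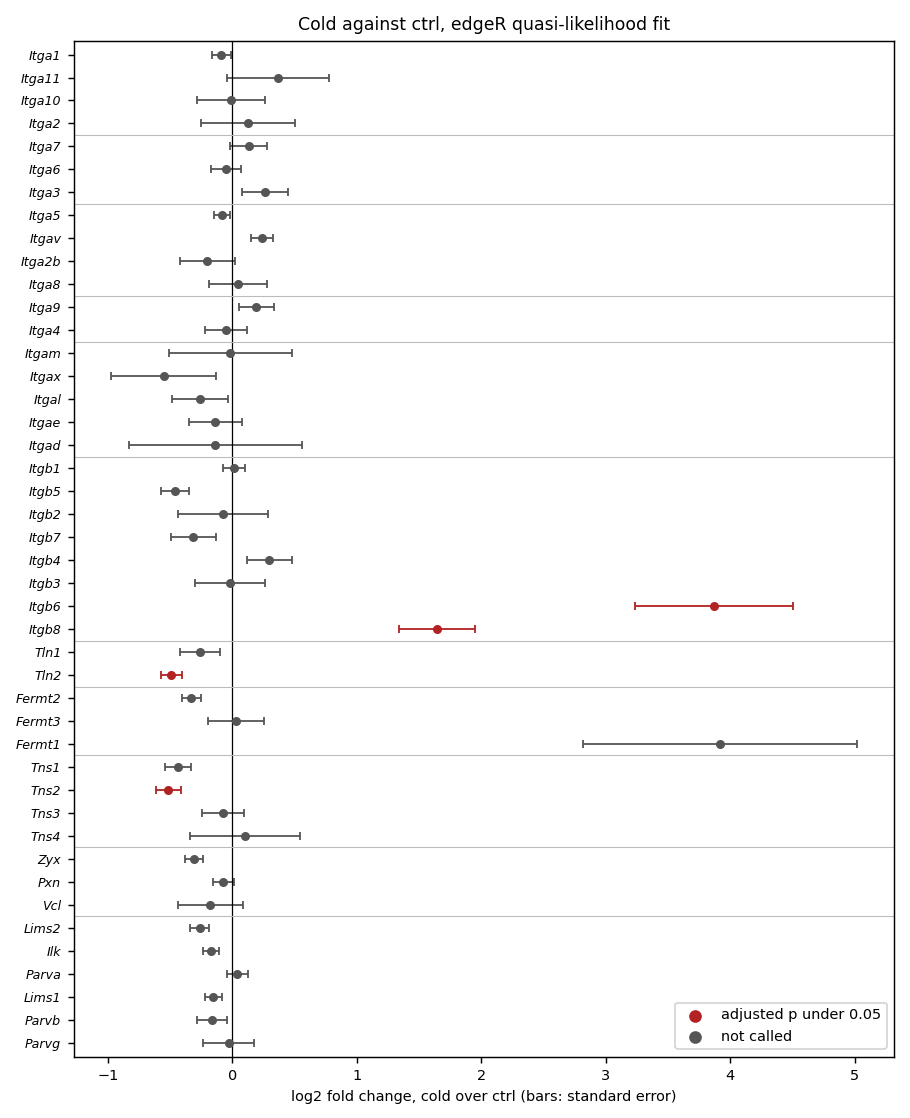
Log2 fold change of each of the 44 genes, cold over ctrl, on the horizontal axis, with bars for the standard error and grey lines between the classes of protein. The 4 genes past the threshold are in red, Itgb6 at 3.87 and Itgb8 at 1.64 to the right and Tln2 at -0.49 and Tns2 at -0.51 to the left; Fermt1 lies furthest right at 3.92 with a standard error of 1.10 and was not called.

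The lower values lay mostly among the linkers. Of the 18 linkers, 8 (44.4%) were lower in every cold library than in any ctrl library and 1 (5.56%) was higher. Of the 26 integrin chains, 2 (7.69%) were lower and 3 (11.5%) were higher. Among all genes tested, 11% were lower and 12.7% higher in this way. The median log2 fold change was -0.17 over the linkers and -0.02 over the integrin chains, beside -0.01 over all genes tested. The difference between linkers and chains was not tested. The summed level of 12 smooth muscle and pericyte markers was 1718, 1687 and 1913 CPM in the cold and 2065, 2247 and 2179 CPM in ctrl. Its members differed. The pericyte and mural genes Rgs5, Mcam, Notch3 and Abcc9 were at -0.58, -0.40, -0.36 and -0.33 on the log2 scale. Of these Notch3 was called (edgeR adjusted p = 0.0447). The contractile genes Acta2, Tagln and Cnn1 were at 0.28, 0.21 and 0.49 and Myh11 and Des at -0.01 each, with overlapping groups. The pericyte genes Pdgfrb and Kcnj8 were at -0.096 and -0.289, and the contractile gene Smtn at -0.145. Among these, Pdgfrb was lower in every cold library, and Kcnj8 and Smtn had overlapping groups. The summed level of 12 endothelial markers, all with a log2 fold change below 0 and none called, was 1606, 1729 and 1873 CPM in the cold against 1974, 2011 and 2048 CPM in ctrl. The part of these cell types, and of adipocytes, in the lower linker levels was not tested.

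Per length, the tensins Tns1 and Tns2 were the most abundant members, whereas Tns3 and Tns4 averaged 13.9 and 0.745 TPM. The average over all 6 libraries was 319 TPM (the deposited measure of abundance, scaled for transcript length and library depth) for Tns1, followed by 288 TPM for Tns2, 214 TPM for Lims2, 174 TPM for Ilk and 169 TPM for Itgb1. At the other end, Itga8, Itgb6, Itga2, Itgad and Itgb8 averaged 0.533, 0.358, 0.241, 0.199 and 0.184 TPM. The levels of the 44 members thus covered more than 3 powers of 10, and both genes that rose were among the 5 lowest.

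**Figure D2:**
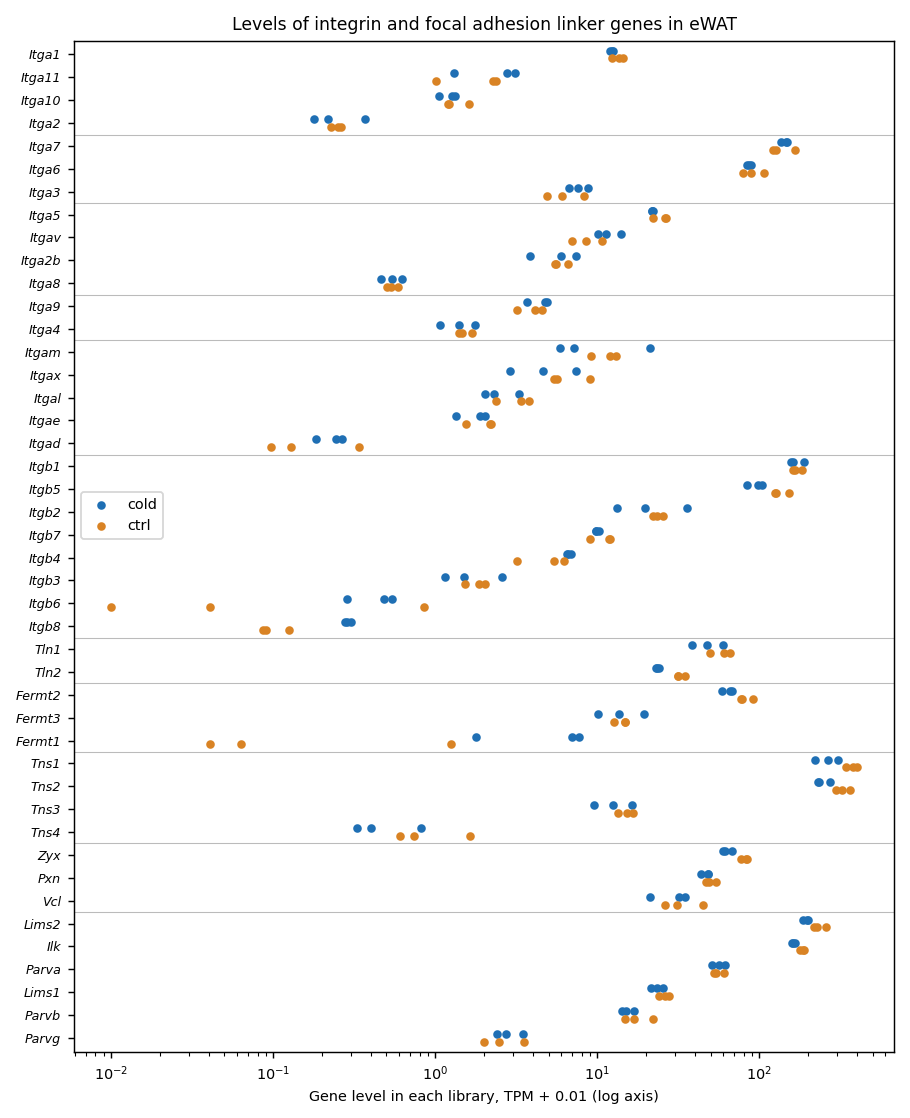
TPM plus 0.01 of each member on a log axis, 1 point per library, with cold points (blue) above ctrl points (orange) in each row. Tns1 and Tns2 lie furthest right, and all 3 cold points of both lie left of the ctrl points; for Itgb6 the ctrl 5 point, at 0.843 TPM, lies right of the cold points.

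Tensins bind the tails of beta chains and cap or cross-link actin in stable adhesions. Tns2 (ENSMUSG00000037003, chromosome 15, 102100413 to 102116401 of GRCm38, plus strand) had 385, 442 and 359 CPM in cold 7, cold 12 and cold 16, against 559, 534 and 600 CPM in ctrl 5, ctrl 6 and ctrl 10. Every cold library was below every ctrl library. The mean was 395 ± 42.3 CPM in the cold and 564 ± 33.4 CPM in ctrl (SD, n = 3 each), and the gene fell by 0.51 on the log2 scale (SE 0.10, edgeR adjusted p = 0.0379), or by 30.0%. The call was lost with an offset for mean transcript length (-0.39, adjusted p = 0.0831). It was also lost without cold 12, cold 16, ctrl 5, ctrl 6 or ctrl 10, with adjusted p of 0.123, 0.0955, 0.0692, 0.115 and 0.138 by edgeR, at log2 fold changes of -0.45 to -0.59. The unadjusted p in these fits was 0.000609, 0.00297, 0.00321, 0.00173 and 0.00365 by edgeR, beside 0.000708 with all libraries. These fits called 0, 0.0163, 3.75, 0 and 0% of all genes.

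Tns1, the tensin with the highest level, had 1945, 1754 and 1578 CPM in the cold libraries and 2494, 2269 and 2382 CPM in the ctrl libraries. The groups did not overlap, but at -0.44 (SE 0.10) the gene missed the threshold by edgeR (adjusted p = 0.0663). Tns3 was at -0.07 and Tns4, a tensin without the actin-binding part, at 0.10 on the log2 scale, with overlapping groups. Summed over the family, tensin transcripts made up 555, 551 and 463 TPM in the cold and 743, 655 and 759 TPM in ctrl. The difference of -196 TPM had an exact two-sided permutation p of 0.10, the smallest that 3 libraries against 3 allow. Within that sum Tns2 took 42.1, 49.5 and 50.0% in the cold and 43.9, 45.7 and 47.8% in ctrl, so its share of the family overlapped between the groups.

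Tns2 is read from several start sites, and the annotated transcripts differ in the bases that encode the start of the protein. Because 4126 coding bases are shared, the own part of each of 3 coding forms is shown, from its start codon (capitals) to the shared part. The bases are as spliced in GENCODE M21 on GRCm38, chromosome 15, plus strand. Of these forms, Tns2-203 is annotated with an incomplete coding end. The transcripts start at 102100413 (Tns2-203), 102102934 (Tns2-202) and 102104425 (Tns2-209), and a read that lies wholly in the shared part cannot tell them apart.
Tns2-203: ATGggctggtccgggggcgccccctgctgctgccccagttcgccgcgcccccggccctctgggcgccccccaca
Tns2-202: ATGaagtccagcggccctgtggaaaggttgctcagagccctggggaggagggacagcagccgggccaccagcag
Tns2-209: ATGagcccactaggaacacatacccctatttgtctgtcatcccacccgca

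The form with the most downstream of these starts had a lower share of Tns2 in the cold. Tns2-209 held 35.6, 28.9 and 39.3% of the gene's estimated counts in the cold libraries, against 39.7, 48.0 and 40.8% in the ctrl libraries. Its share was lower in every cold library, by 8.23 percentage points on average (SE 4.93), with an exact permutation p of 0.10. Cold 16 and ctrl 5 lay close together, so the separation was narrow. Tns2-202 held 36.7, 43.2 and 33.3% in the cold and 36.3, 26.4 and 33.1% in ctrl, which overlap.

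The smaller Tns2 forms named here each differed less in mean share than Tns2-209 did. Tns2-203 averaged 8.02 ± 1.55% in the cold and 7.19 ± 0.55% in ctrl, and Tns2-201, which starts close to Tns2-202, 5.44 ± 0.31% in the cold and 6.20 ± 0.74% in ctrl (SD, n = 3 each). The retained intron form Tns2-205 averaged 12.7 ± 1.66% in the cold and 10.3 ± 0.25% in ctrl (SD, n = 3 each), higher in every cold library (exact permutation p = 0.10). As a level, Tns2-209 was at -0.81 (SE 0.08, unadjusted p = 5.9e-05) and Tns2-202 at -0.25 (SE 0.22). Neither passed over all transcripts by edgeR, with an adjusted p of 0.221 for Tns2-209 and 0.906 for Tns2-202. DESeq2, which called 1.24% of all transcripts, called Tns2-209 and Tns2-201. The usage test of edgeR's diffSpliceDGE asks whether a transcript moves against the rest of its gene, and no usage difference passed in Tns2 (adjusted p = 1 for Tns2-209 and for the gene).

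**Figure D3:**
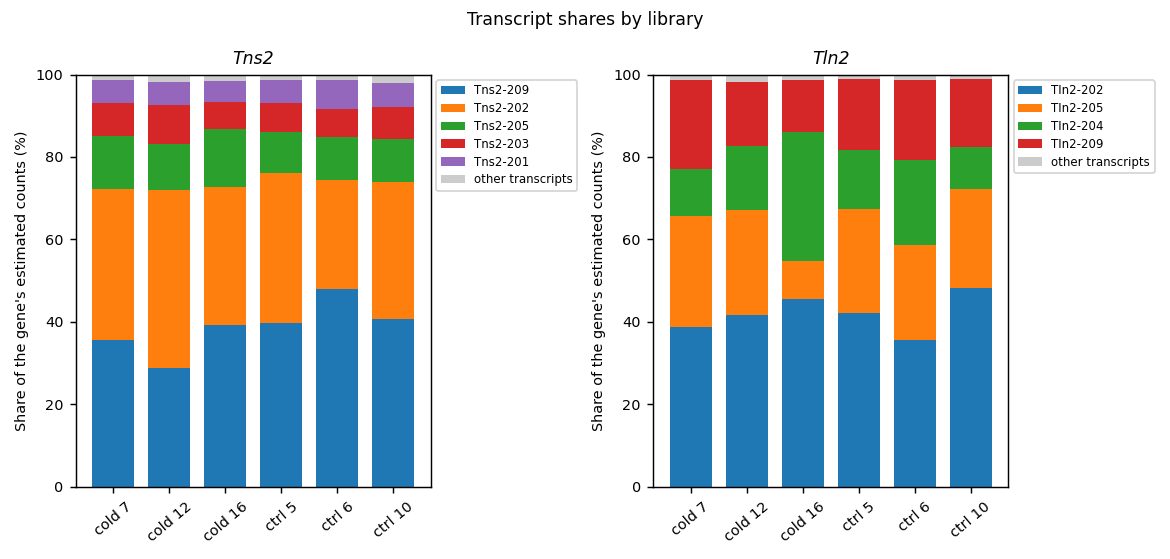
Stacked bars of each transcript's share of its gene's estimated counts, in percent, with cold libraries left of ctrl libraries. The lowest block of Tns2 (left panel, Tns2-209) is 28.9 to 39.3% in the cold and 39.7 to 48.0% in ctrl; in Tln2 (right panel) cold 16 stands apart, with 31.4% in Tln2-204 and 9.05% in Tln2-205.

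Talins carry the force between the beta chain and actin. Tln2 (ENSMUSG00000052698, chromosome 9, 67217087 to 67559703 of GRCm38, minus strand) is the talin of muscle and nerve rather than blood cells. It had 101, 102 and 95.1 CPM in the cold libraries and 145, 126 and 148 CPM in the ctrl libraries, so the groups were apart. The mean was 99.6 ± 3.90 CPM in the cold and 140 ± 12.0 CPM in ctrl (SD, n = 3 each), and Tln2 fell by 0.49 on the log2 scale (SE 0.08, edgeR adjusted p = 0.0314), or by 28.7%. Under the length offset it stayed below the threshold (adjusted p = 0.0344). The call was lost without cold 12, cold 16, ctrl 5, ctrl 6 or ctrl 10, at an adjusted p of 0.132, 0.0790, 0.0581, 0.0876 and 0.127 by edgeR, at log2 fold changes of -0.44 to -0.55. The unadjusted p in these fits was 0.00186, 0.00165, 0.00242, 0.000152 and 0.00197 by edgeR, beside 0.000297 with all libraries. They are the fits named for Tns2, with the same shares of all genes called. The annotation places the microRNA gene Mir190a, on the same strand, and an antisense gene inside Tln2. The libraries are strand-specific per the labels, which can set apart reads of the antisense gene but not of Mir190a.

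Tln1, the talin of most cells, had 365, 291 and 243 CPM in the cold and 360, 313 and 405 CPM in ctrl, with overlap and a log2 fold change of -0.26 (SE 0.16, edgeR adjusted p = 0.479). Of the summed talin TPM, Tln2 made up 28.2, 33.5 and 37.3% in the cold and 36.5, 38.6 and 32.4% in ctrl. These shares overlap (exact permutation p = 0.50), so no difference in the balance of the 2 talins was detected. With 3 libraries in each group this does not show that the balance was the same.

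Transcript shares of Tln2 overlapped between the groups. The longest form, Tln2-202 with 12132 bases, held 38.8, 41.7 and 45.6% of the gene's counts in the cold and 42.2, 35.7 and 48.1% in ctrl, a mean difference of 0.03 percentage points (SE 5.00). Tln2-205 held 26.8, 25.4 and 9.05% in the cold and 25.3, 23.0 and 24.1% in ctrl, and Tln2-204 held 11.6, 15.5 and 31.4% in the cold and 14.3, 20.5 and 10.1% in ctrl. Cold 16 was thus low in Tln2-205 and high in Tln2-204, while the other cold libraries lay close to ctrl. Tln2-209 held 16.5 ± 4.49% in the cold and 17.7 ± 1.53% in ctrl (SD, n = 3 each). As levels these 4 forms were at -0.48, -0.69, -0.08 and -0.56 on the log2 scale in the order named, none past the threshold by edgeR.

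Kindlins bind the beta chain beside talin. Fermt2, the kindlin of most solid tissues, had 123, 126 and 123 CPM in the cold libraries and 150, 149 and 170 CPM in the ctrl libraries. The groups were apart, and the log2 fold change of -0.33 (SE 0.08) missed the threshold by edgeR (adjusted p = 0.0608). Fermt1, the kindlin of epithelia, had 136, 529 and 520 estimated counts in cold 7, cold 12 and cold 16, against 62, 4 and 2 in ctrl 5, ctrl 6 and ctrl 10. All cold libraries were higher, at a log2 fold change of 3.92 (SE 1.10, edgeR adjusted p = 0.148), and ctrl 5 and cold 7 were the closest pair between the groups. Fermt3, the kindlin of blood cells, was at 0.03 with overlapping groups. Fermt2 made up 76.2, 75.5 and 77.5% of kindlin TPM in the cold and 82.8, 83.9 and 87.8% in ctrl (exact permutation p = 0.10). Fermt1 made up 1.974, 8.848 and 9.147% in the cold and 1.313, 0.0576 and 0.0297% in ctrl. Fermt3 made up 21.79, 15.65 and 13.34% in the cold and 15.88, 16.08 and 12.13% in ctrl. In cold 7 the Fermt1 share was thus close to that of ctrl 5, and the Fermt3 share was the highest of all libraries.

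Zyx, a LIM protein recruited to adhesions and stress fibres under tension, had 104, 93.1 and 97.0 CPM in the cold libraries, against 127, 117 and 121 CPM in the ctrl libraries. It was lower in every cold library, at -0.31 on the log2 scale (SE 0.07, edgeR adjusted p = 0.0648). Its neighbours in the adhesion did not separate. Vcl, which braces talin to actin, was at -0.18 with 105 ± 22.6 CPM in the cold and 119 ± 36.8 CPM in ctrl (SD, n = 3 each), and Pxn, the scaffold for kinases, was at -0.07.

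None of the 6 genes of the ILK complex passed the threshold by edgeR, where 2 had an unadjusted p under 0.05. DESeq2, which called 4.07% of all genes, called Lims2. Lims2, a PINCH protein, had the highest level of them, with 171, 172 and 189 CPM in the cold and 225, 211 and 202 CPM in ctrl. Those groups did not overlap, at a log2 fold change of -0.26 (SE 0.08, edgeR adjusted p = 0.115). Ilk, the pseudokinase at the centre of the complex, was also lower in every cold library (-0.17, SE 0.06, edgeR adjusted p = 0.20), as was Lims1 (-0.15). The parvins, which bind ILK and actin, were at 0.04 (Parva), -0.16 (Parvb) and -0.03 (Parvg), each with overlapping groups.

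**Figure D4:**
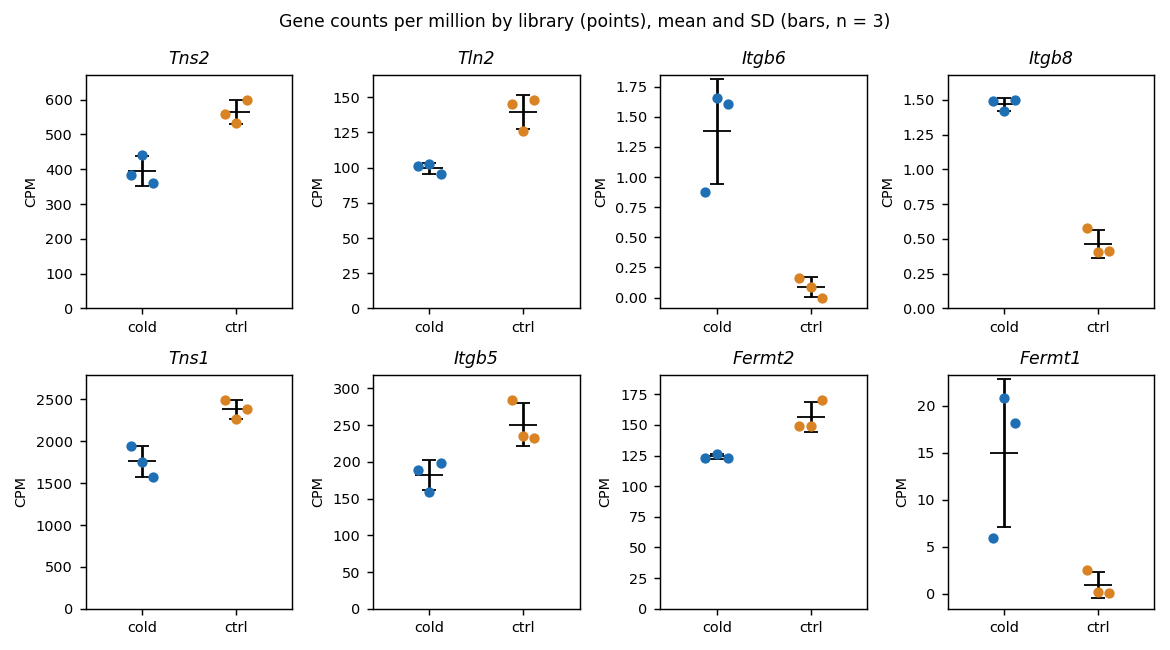
CPM of 8 members in each library (points, cold left of ctrl), with the mean and SD of 3 libraries as bars. The 4 called genes are Tns2, Tln2, Itgb6 and Itgb8. Beside them, Tns1, Itgb5, Fermt2 and Fermt1 are examples of members whose groups were apart although they missed the threshold. The same held for Zyx, Lims2, Ilk, Lims1, Itga5 and Itgav, which are not shown.

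Among the beta chains, Itgb6 (ENSMUSG00000026971, chromosome 2, 60598292 to 60722643 of GRCm38, minus strand) encodes a chain found in epithelial cells, where its integrin activates TGF-beta. It had 20, 42 and 46 estimated counts in cold 7, cold 12 and cold 16, against 4, 2 and 0 in ctrl 5, ctrl 6 and ctrl 10. The groups were apart in counts, and the gene rose by 3.87 on the log2 scale (SE 0.64, edgeR adjusted p = 0.0312), at 1.38 ± 0.44 CPM in the cold and 0.0848 ± 0.0827 CPM in ctrl (SD, n = 3 each). In TPM they overlapped, with 0.277, 0.527 and 0.472 TPM in the cold and 0.843, 0.0307 and 0 TPM in ctrl. The ctrl 5 value is high because 20.6% of its few counts were placed on Itgb6-206, a transcript of 249 bases. With the length offset the call was lost (2.81, adjusted p = 0.333), as it was without cold 12, cold 16, ctrl 6 or ctrl 10 (adjusted p of 0.132, 0.0745, 0.117 and 0.105 by edgeR, at log2 fold changes of 3.74, 3.74, 3.88 and 3.38). The fits without 1 of these libraries called at most 0.0163% of all genes. Without ctrl 5 the log2 fold change was 4.73, and the gene was called (edgeR adjusted p = 0.0316).

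Itgb8 (ENSMUSG00000025321, chromosome 12, 119158022 to 119238802 of GRCm38, minus strand), whose integrin also activates TGF-beta, had 34, 36 and 43 estimated counts in the cold libraries and 14, 9 and 8 in the ctrl libraries. Every cold library was higher, at 1.47 ± 0.05 CPM in the cold and 0.464 ± 0.099 CPM in ctrl (SD, n = 3 each), and the gene rose by 1.64 on the log2 scale (SE 0.31, edgeR adjusted p = 0.0359). All its counts lay on 1 transcript, and it passed with the length offset too (adjusted p = 0.0458). Without cold 12, cold 16, ctrl 6 or ctrl 10 it missed the threshold, at an adjusted p of 0.137, 0.0996, 0.129 and 0.140 by edgeR and log2 fold changes of 1.56 to 1.69. Those fits called at most 0.0163% of all genes.

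Itgb6 and Fermt1 followed the epithelial and cilium markers across libraries, being lowest among the cold libraries in cold 7 and highest among the ctrl libraries in ctrl 5. Itgb8 did not separate the cold libraries in that way, with 1.49, 1.42 and 1.50 CPM. With the mean level of the motile cilium markers as a covariate, the log2 fold change was 1.33 (SE 1.18) for Itgb6 and 1.19 (SE 0.74) for Itgb8, and neither passed by edgeR (adjusted p = 0.997 each). In the same fit Tns2 was at -0.53 (SE 0.24) and Tln2 at -0.51 (SE 0.20), beside -0.51 and -0.49 without the covariate, and neither passed by edgeR (adjusted p = 0.997 each). Of the variance of that covariate, 80.7% lay between cold and ctrl, so the 2 cannot be told apart.

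**Figure D5:**
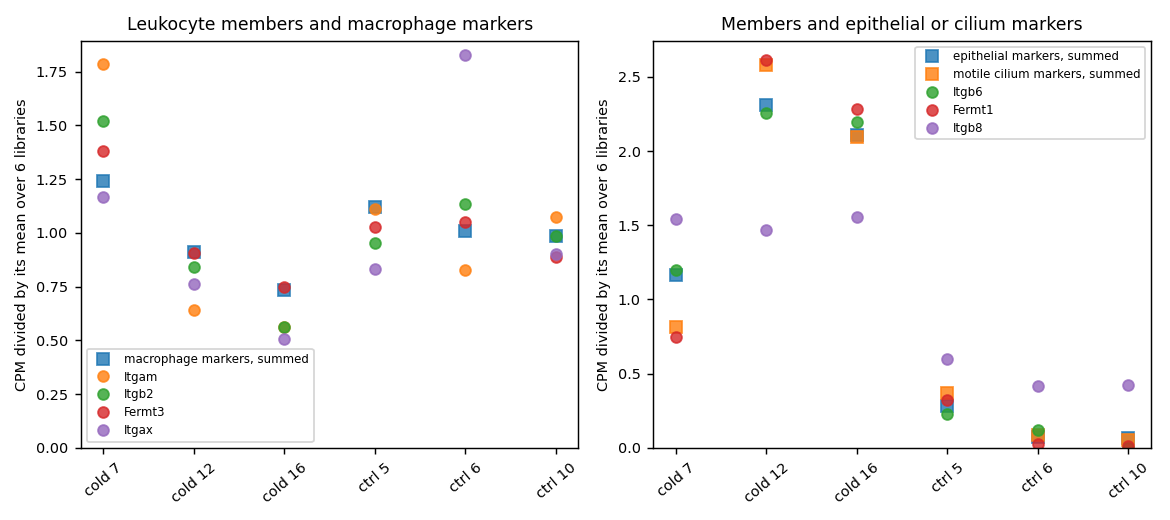
CPM of members (circles) and summed CPM of marker lists (squares), each divided by its mean over the 6 libraries, with cold libraries left of ctrl libraries. In the left panel Itgam and Itgb2 reach 1.79 and 1.52 in cold 7, where macrophage markers are at 1.24; in the right panel Itgb6 and Fermt1 are at 1.20 and 0.748 in cold 7 and above 2 in cold 12 and cold 16, like the epithelial markers, and Itgb8 is between 1.47 and 1.55 in all 3.

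Itgb1, the partner of most alpha chains, was the most abundant beta chain and had 488, 427 and 449 CPM in the cold and 433, 437 and 484 CPM in ctrl. The groups overlapped, at 0.01 on the log2 scale (SE 0.09), and this value changed sign with single libraries left out. Itgb5, a partner of Itgav that binds vitronectin, had 188, 160 and 199 CPM in the cold libraries and 284, 235 and 232 CPM in the ctrl libraries. All cold libraries were lower, at -0.46 (SE 0.11), but the gene missed the threshold by edgeR (adjusted p = 0.0704). Of the summed beta chain TPM, Itgb1 made up 55.0, 56.8 and 53.7% in the cold and 46.0, 49.3 and 52.0% in ctrl, and Itgb5 28.7, 29.7 and 35.6% in the cold and 42.3, 38.8 and 35.6% in ctrl. Each had an exact permutation p of 0.10, and for Itgb5 the nearest libraries, cold 16 and ctrl 10, were both at 35.6% after rounding. Itgb4, the laminin receptor chain of hemidesmosomes and nerve sheaths, was at 0.30, Itgb7 at -0.31 and Itgb3 at -0.02, all with overlapping CPM. In TPM, however, Itgb4 was higher in every cold library, at 6.835, 6.539 and 6.525 against 5.42, 3.184 and 6.217 in ctrl. The same held for its share of beta chain TPM (exact permutation p = 0.10).

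Of the 18 alpha chains none passed the threshold by edgeR, with 1 at an unadjusted p under 0.05 and 0 called by DESeq2. Itga7, a laminin receptor chain best known from muscle, was the most abundant, with 365, 337 and 380 CPM in the cold and 285, 413 and 289 CPM in ctrl. It made up 43.2, 43.6 and 47.5% of all alpha chain TPM in the cold and 42.0, 49.3 and 37.1% in ctrl. Both values overlap between groups, and the log2 fold change was 0.13 (SE 0.15, edgeR adjusted p = 0.723).

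Itga7 has a pair of alternative coding parts in its extracellular region, and the reads in eWAT fell on both. They are shown as the coding bases that differ between the 2 main transcripts, from coding base 672 onwards, as spliced in GENCODE M21 on GRCm38, chromosome 10, plus strand, with no capitals because the whole stretch differs.
Itga7-201: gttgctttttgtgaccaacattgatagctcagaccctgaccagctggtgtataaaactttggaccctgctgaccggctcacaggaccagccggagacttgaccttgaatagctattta
Itga7-202: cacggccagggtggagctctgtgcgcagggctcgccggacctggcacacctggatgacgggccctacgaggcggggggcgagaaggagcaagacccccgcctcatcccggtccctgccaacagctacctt
Itga7-201 held 64.7, 63.3 and 65.2% of the gene's counts in the cold libraries and 58.7, 65.9 and 54.2% in the ctrl libraries. Itga7-202 held 31.4, 32.5 and 30.8% in the cold and 35.4, 29.9 and 40.4% in ctrl. The cold libraries were close to each other and lay inside the ctrl range for both, so the choice between the coding parts did not separate the groups (exact permutation p = 0.40 each).

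The other laminin-binding chains did not separate either. Itga6 was at -0.05, and between 62.9 and 80.9% of its counts in each library lay on Itga6-203, a transcript annotated without a protein. Itga3 had 22.4, 27.7 and 24.7 CPM in the cold and 19.1, 16.5 and 27.0 CPM in ctrl (0.26, SE 0.18). Of the chains that recognise the RGD motif of fibronectin and vitronectin, Itgav had 30.3, 34.5 and 33.3 CPM in the cold and 29.2, 25.4 and 28.5 CPM in ctrl. It was higher in every cold library by a narrow gap, at 0.24 (SE 0.09, edgeR adjusted p = 0.205). Itga5, the fibronectin receptor chain, had 63.1, 60.0 and 61.5 CPM in the cold and 64.2, 63.6 and 67.5 CPM in ctrl (-0.08, SE 0.07), lower in every cold library, though cold 7 and ctrl 6 were close. Itga2b, the platelet chain, and Itga8 were at -0.20 and 0.05.

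The collagen receptor chain Itga1 had 79.8, 80.9 and 89.8 CPM in the cold and 93.5, 84.5 and 88.0 CPM in ctrl, at -0.09 with overlap. The collagen receptor chains Itga2, Itga10 and Itga11 were at 0.12, -0.01 and 0.37 on the log2 scale with standard errors of 0.27 to 0.41, so a change of modest size in them was not detectable at these levels. Itga9, a chain of lymphatic endothelium and smooth muscle, had 23.9, 22.7 and 18.4 CPM in the cold and 20.7, 15.9 and 20.2 CPM in ctrl (0.19, SE 0.14), and Itga4, which binds VCAM1, was at -0.05.

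Leukocyte chains varied more between libraries than between groups. Itgam, the alpha chain of complement receptor on macrophages and neutrophils, had 61.8, 22.1 and 19.4 CPM in the cold libraries and 38.4, 28.5 and 37.2 CPM in the ctrl libraries. Cold 7 was the highest of all 6 and the other cold libraries were the lowest, giving -0.02 (SE 0.49, edgeR adjusted p = 0.993). Without cold 7 the gene was lower in the cold (-0.75) and passed by edgeR (adjusted p = 0.0278), with 2 cold libraries against 3, in a fit that called 5.91% of all genes. Its partner Itgb2 followed, with 69.4, 38.4 and 25.7 CPM in the cold and 43.4, 51.7 and 44.9 CPM in ctrl. Macrophage markers had their highest and lowest sums in the same libraries, cold 7 and cold 16, and their part in these values was not tested. Itgax, a chain of dendritic cells and fat tissue macrophages, had 14.8, 9.67 and 6.42 CPM in the cold and 10.5, 23.2 and 11.4 CPM in ctrl, with ctrl 6 the highest (-0.55, SE 0.42). Itgal, Itgae and Itgad were at -0.26, -0.14 and -0.14 with overlapping groups, and Itgad had only 4 to 17 counts in a library.

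Transcripts of the members were also tested singly. Of 120 member transcripts kept by the filter, 0 passed by edgeR, as did 0% of all 42984 transcripts tested, with 21 of the 120 at an unadjusted p under 0.05, beside 8.15% of all, and 9 called by DESeq2, where 1.24% of all transcripts were. In the usage test 0 of 26 members passed by diffSpliceDGE, against 0.984% of 9654 genes, with 2 at an unadjusted p under 0.05, beside 2.79% of all genes, and 0 by limma's diffSplice, which called 0.0104% of all genes. The smallest usage p belonged to Tns1 (adjusted p = 0.718 by edgeR), whose minor form Tns1-208 held 4.07, 3.39 and 2.29% in the cold and 6.45, 3.66 and 7.48% in ctrl. In Itgb1, next in order at an adjusted p of 0.913 by edgeR, a form marked for nonsense-mediated decay held 5.15% of counts in cold 7 and at most 0.633% in any other library. The retained intron form of Fermt1 held 8.41, 14.7 and 4.58% in the cold and was listed at 0 in ctrl, where ctrl 6 and ctrl 10 had 4 and 2 counts for the whole gene. In the same order Fermt1 stood behind Itgb4 and ahead of Itga2b, all 3 at an adjusted p of 1.

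Partners of these proteins were read from 5 lists with 83 genes, of which 82 were tested. By edgeR 5 rose and 1 fell, beside 2.32% and 0.566% of all genes, with a median log2 fold change of -0.11 over the 82. Among 20 focal adhesion kinases and adaptors Pak1 alone was called by edgeR. Pak1, a kinase that drives adhesion turnover, had 9.41, 10.8 and 10.2 CPM in the cold and 6.15, 5.23 and 5.54 CPM in ctrl (log2 fold change 0.85, SE 0.14, edgeR adjusted p = 0.0312). The Rap1 exchange factor Rapgef1 was at -0.36 (edgeR adjusted p = 0.0727).

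Of the 20 actin linkers, Enah, an actin polymerase cofactor of adhesions, rose by 0.97 on the log2 scale, with 30.0, 48.7 and 44.3 CPM in the cold against 21.6, 22.2 and 19.1 CPM in ctrl (SE 0.18, edgeR adjusted p = 0.0399), a call not made without ctrl 5. The caveolar gene Cav1 was at -0.35 and missed the threshold. None of 15 regulators of integrin activity passed by edgeR, with 3 at an unadjusted p under 0.05, and DESeq2 called Rasip1 and Dab2. Rasip1, a Rap1 effector of endothelium, was at -0.34 and Dab2, an adaptor that takes up integrins, at 0.50.

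Matrix ligands held 3 of the 6 calls. Npnt, nephronectin, had 8.75, 11.7 and 11.6 CPM in the cold and 3.51, 3.26 and 3.70 CPM in ctrl and rose by 1.61 (SE 0.17, edgeR adjusted p = 0.021). Lamb2, a laminin chain of vessel and muscle basement membranes, had 367, 336 and 335 CPM in the cold and 447, 433 and 442 CPM in ctrl and fell by 0.35 (SE 0.07, edgeR adjusted p = 0.0489), a call not made with RLE size factors, with the length offset or without ctrl 5. Among the counter-receptors of leukocyte integrins, Cdh1, also an epithelial marker, rose by 4.25 (SE 0.68, edgeR adjusted p = 0.0387), with 9.41, 19.3 and 15.4 CPM in the cold and 1.65, 0.313 and 0.257 CPM in ctrl, and Jam2 was at -0.37 (adjusted p = 0.054). Cdh1 had the library order of the epithelial markers, with cold 7 lowest in the cold and ctrl 5 highest in ctrl, and was not called with the length offset or without the low-count filter. By edgeR none of the 6 passed without cold 12, cold 16, ctrl 6 or ctrl 10, in fits that called at most 0.0163% of all genes.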

How the data were processed

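For each library the authors deposited a Salmon output with 140658 transcripts. Per the file headers it holds estimated counts (fractional where reads are shared between transcripts) and TPM, the deposited abundance scaled for length and depth. Per the submitters' processing notes, bcl2fastq, cutadapt, Salmon and GRCm38 were used; their versions were not given. Per the labels' protocols, libraries were strand-specific, with paired reads of 50 nt.

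Transcripts were joined to GENCODE M21; 521 that name no gene, with 0.124 to 0.394% of a library's counts, were left out. Estimated counts were summed per gene and rounded to whole numbers. Genes passing filterByExpr (minimum count 10, minimum total 15) were tested with edgeR 4.0.16 in R 4.3.3 (TMM, glmQLFit with robust estimation, glmQLFTest, two-sided), with Benjamini-Hochberg adjustment over all 17852 genes and calls at an adjusted p under 0.05. CPM use TMM-scaled library sizes. Transcripts were fitted alike, and usage with diffSpliceDGE. Transcript and family shares were compared by exact permutation. How Salmon split reads between transcripts adds error that the tests do not model. Steps were tested on simulated data.

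The members and lists were chosen with earlier results of these data known. Within a group, libraries differed by more than sampling noise, at a chi-square of 11.1 to 29.8 per degree of freedom. Library values are given for called members, Tns2, Tln2, and in each of 11 classes the member with the highest TPM and the one with the smallest p. Values of Itgb2, Itgb4, Itgb5, Fermt1, Fermt3 and Itga7 transcripts were added after they were seen. In partner lists, called genes and up to 2 with the smallest p are named. A gene that falls under this rule is not reported here. Of 12 motile cilium markers 11 were found in the annotation. Alternatives were RLE size factors, no filter, DESeq2 1.42.0, a length offset, a motile cilium covariate, limma 3.58.1, a minimum share of 10% and leaving out libraries.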

Additional observations from a re-analysis of the deposited data

How the results depend on the processing

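With RLE size factors the same 4 members were called. The number called was 8 without the low-count filter (2.65% of all genes called), 10 with DESeq2 (4.07%), 2 with the length offset (2.29%) and 0 with the motile cilium covariate (0% of all genes; 3 members at an unadjusted p under 0.05 by edgeR). Leaving out 1 library gave 0 to 7. It gave 0 by edgeR without cold 12, cold 16, ctrl 6 or ctrl 10, with 10, 10, 12 and 13 members at an unadjusted p under 0.05, where 0, 0.0163, 0 and 0% of all genes were called. It gave 7 without cold 7 (5.91% of all genes called) and 3 without ctrl 5 (3.75%), and 4 of 44 were called without both (Fermt1, Itgam, Itgb6 and Itgb8; 6.78% of all genes). For the 82 partner genes the number called was 10 without the filter, 14 with DESeq2, 3 with the length offset and 0 with the covariate (6 at an unadjusted p under 0.05 by edgeR), and 0 to 7 with 1 library left out. Member transcripts called numbered 9 with DESeq2, and members with a usage call 0 to 2 with 1 library left out (Tns1 and Itga10 without cold 7, Itgb4 without cold 12). The share difference of Tns2-209 ran from -10.6 to -5.37 points with 1 library left out and was -6.23 as a share of TPM.

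Signs turned in uncalled values only. With the covariate Itga5 was at 0.019, Itgam at 0.716, Itgax at 0.463 and Tln1 at 0.069. Itgam was at 0.028 with the length offset and between -0.75 and 0.27 with 1 library left out. Itgb1 was between -0.046 and 0.071 with 1 library left out and at -0.065 without ctrl 5 and cold 7. The causes were not tested. The mouse numbers differ between the groups, so no paired analysis was possible because no number is shared. At 0 to 46 counts per library, Itgb6 and Itgb8 are limited by depth.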
